A study of Mus musculus with 20 samples.

Results

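Tex15 knockout male germ cells of the mouse were compared between embryonic day 18.5 (e18.5) and postnatal day 2 (d2). The comparison takes in 7 of the 20 libraries of the series, chosen by their labels: 3 libraries labelled Tex15 knockout (Tex15-/-) at e18.5 and 4 labelled Tex15 knockout at d2. The 3 heterozygous (Tex15+/-) libraries at e18.5 and the 4 at d2 are set beside them to ask whether the change with age depends on the genotype. All of these mice carried at least 1 mutant Tex15 allele and were on a mixed strain background, so no group is wild type. The germ cells were sorted by flow cytometry on green fluorescent protein, RNA was amplified from total RNA, and the reads were counted per gene, per repeat name and per repeat family. The labels do not give the source of the fluorescent protein, the part of Tex15 that was deleted, or whether replicates came from separate animals, and the design text speaks of biological triplicates although the d2 groups hold 4 libraries each. The p-values below therefore measure the spread between these libraries only.

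At e18.5 the male germ cell of the fetal testis, the prospermatogonium, is arrested in the cell cycle and is remethylating its genome with the de novo methyltransferases, guided at transposons by piRNAs, small RNAs bound to PIWI proteins. Around and after birth these cells resume division, move to the basement membrane of the seminiferous cord and take on the identity of spermatogonial stem cells, which depend on the growth factor GDNF and its receptor. Tex15 encodes a large germ cell protein that is required for the silencing of transposons in male germ cells. The question asked here is which genes and repeats differ between the e18.5 and d2 stages in germ cells that lack it, and where that difference departs from the one in heterozygous cells.

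Levels are counts-per-million values (CPM), the count of a gene scaled to a fixed total of gene counts after correction of library size by the trimmed mean of M-values (TMM), which compares 1 gene between libraries and not different genes with each other. A gene was called higher or lower when its adjusted p (edgeR's quasi-likelihood test, Benjamini-Hochberg over all genes tested) was under 0.05. Knockout libraries held 26938596 to 30347635 counts at e18.5 and 14328826 to 24546972 at d2, of which 9967493 to 12117821 and 7775062 to 12132827 were in genes. The counts of the 2 ages stand in separate tables with different gene definitions, and the 23853 symbols found in both were used. They held between 98.7% and 98.8% of the gene counts of each of these libraries. Age and table cannot be told apart in the knockout comparison. Where the age change of one genotype is subtracted from that of the other, a difference of definitions drops out if it scales both genotypes alike. Whether it does was not tested. Among called genes, 438 had under 10 counts over all 7 libraries of d2 and 23 over all 7 of e18.5, heterozygous libraries included.

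The targeted gene was read first. Tex15 stood at 1.76, 4.54 and 2.79 CPM in the e18.5 knockout libraries and at 2.11, 105.2, 2.57 and 2.68 CPM in those labelled knockout d2 replicates 1 to 4, against 1505 ± 302 CPM (SD, n = 3) and 867 ± 172 CPM (SD, n = 4) in heterozygous cells at the 2 ages. The other 6 knockout libraries are thus at a low level, and the library labelled knockout d2 replicate 2 goes against its label, with 799 Tex15 counts where the other d2 knockout libraries hold 19 to 31. The age difference of Tex15 was 3.20 ± 1.41 on the log2 scale (SE, adjusted p = 0.0796) with that library and -0.28 without it (adjusted p = 0.498). The call was gained by leaving out d2 replicate 1, 3 or 4 (adjusted p from 0.0463 to 0.0498), or by fitting all 20 libraries (0.0353). Without that library, 9872 genes were called between the ages (4584 higher and 5288 lower at d2) in place of 9782, and counts without it are given below for each gene list named where they differ.

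Markers of germ cells summed to 4351 to 5294 CPM at e18.5 and 4468 to 5682 CPM at d2 over 10 genes, all of them detected. Of these 10, 4 were called higher and 4 lower at d2, so the sum covers changes in both directions. The sum of each somatic marker list was above 0 in every library. Over all genes tested in the knockout, 25.1% were called higher at d2 and 28.4% lower. The counts of markers called are to be read against these shares. Sertoli cell markers summed to 86.7 to 110 CPM at e18.5 and 105 to 158 CPM at d2 (16 genes, 4 called higher and 1 lower, 5 and 1 without d2 replicate 2), and stromal markers to 332 to 359 and 255 to 397 CPM (16 genes, 3 higher and 4 lower). Leydig cell markers (9 genes, Insl3 and Ren1 at 0 at both ages; 3 of 7 tested were lower at d2, and 4 without d2 replicate 2) summed to 45.3 to 56.6 CPM at e18.5 and 21.5 to 41.2 CPM at d2, endothelial markers (10 genes, 1 of 9 tested higher and 3 lower, 1 and 4 without d2 replicate 2) to 206 to 231 and 128 to 174 CPM, and red blood cell markers (10 genes, 6 and 7 of them at 0, and the 3 tested all lower, 2 of them without d2 replicate 2) to 18.4 to 20.4 and 3.54 to 10.4 CPM, with no overlap between ages in these 3 lists. White blood cell markers summed to 132 to 158 and 108 to 144 CPM (13 genes, 2 of them at 0 at d2, with 3 of 7 tested higher and 4 lower). The part of these somatic differences in the results below was not tested. In such sorted bulk samples, fewer cells of a type and less RNA of a gene per cell cannot be told apart.

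Of 18288 genes tested, 9782 (53.5%) were called between e18.5 and d2 in the knockout: 4587 (25.1%) were higher at d2 and 5195 (28.4%) lower. Every count of gene list members below is to be read against these shares. The larger differences were mostly decreases: 2686 genes rose and 4102 fell by more than 2-fold, and 625 rose and 2419 fell by more than 4-fold. The knockout libraries of the 2 ages did not overlap for 10234 genes (56.0%). The median log2 difference over all genes tested was -0.09.

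**Figure D1:**
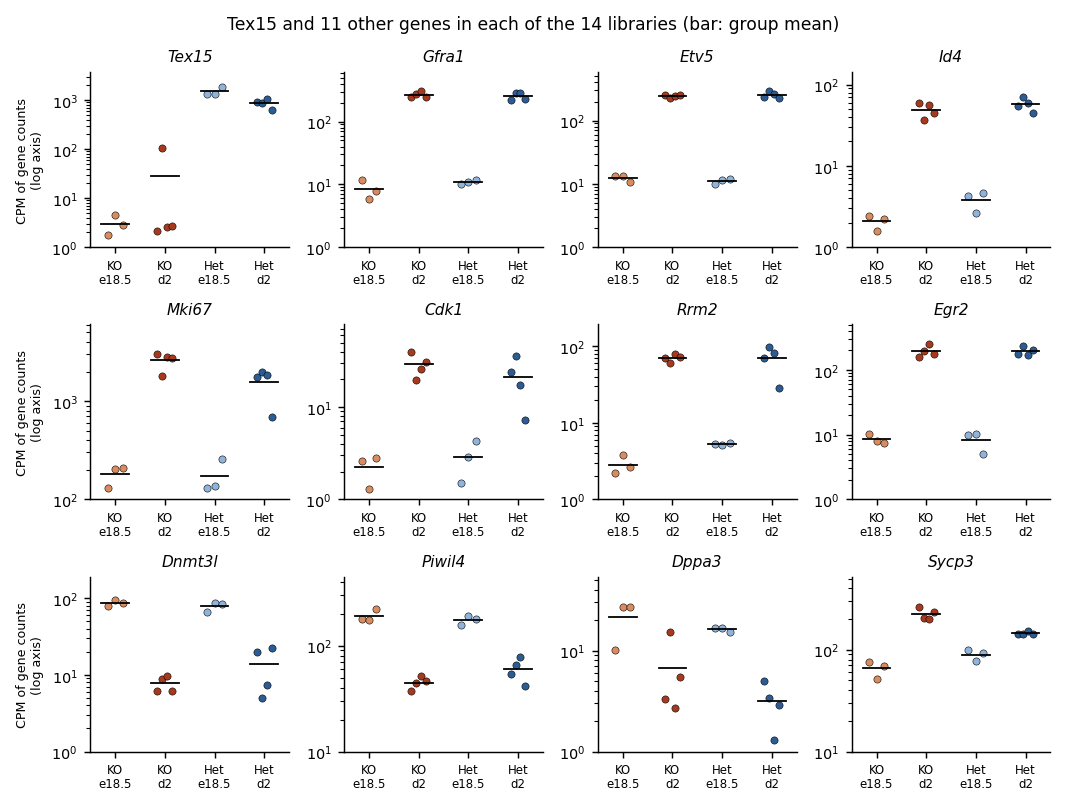
CPM (log axis) of 12 genes in each of the 14 libraries, by genotype and age, with a bar at each group's mean. Gfra1, Etv5, Id4, Mki67, Cdk1, Rrm2 and Egr2 are higher in all 4 knockout d2 libraries than in all 3 of e18.5, Dnmt3l and Piwil4 are lower, and Tex15 is at 105.2 CPM in knockout d2 replicate 2 alone among the knockout libraries.

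Genes of the spermatogonial stem cell were among the largest increases. Of 29 tested members of the list for stem cells and progenitors, 19 rose and 5 fell, with a median log2 difference of 1.92 (1.79 in heterozygous cells), and the counts were the same without d2 replicate 2. Gfra1, the co-receptor for GDNF that marks the stem cell pool, was at 11.8, 5.92 and 7.74 CPM at e18.5 and at 242, 278, 306 and 251 CPM at d2. The 2 ages are far apart and the d2 libraries lie close together, a difference of 31.5-fold (log2 4.98 ± 0.21 SE, adjusted p = 3.82e-14). Ret, the signalling subunit of the same receptor, rose from 32.8 ± 5.95 CPM (SD, n = 3) to 472 ± 39.8 CPM (SD, n = 4). The GDNF-induced transcription factor Etv5 was at 13.5, 13.5 and 10.5 CPM at e18.5 and at 255, 229, 249 and 252 CPM at d2 (log2 4.30 ± 0.16 SE, adjusted p = 6.10e-15). Id4, an inhibitor of differentiation used as a marker of the most primitive spermatogonia, was at 2.43, 1.58 and 2.25 CPM and then at 60.1, 36.5, 55.4 and 44.9 CPM, so that its lowest d2 library was well above its highest e18.5 library. Lhx1, a further GDNF-induced transcription factor, rose by 4.87 ± 0.44 (SE) on the log2 scale, or by 5.75 when e18.5 replicate 2, the highest of its group at 4.54 CPM, was left out.

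Other regulators of self-renewal moved the same way. Bcl6b rose by 2.56, Pou3f1 by 3.57 and Zbtb16, whose protein PLZF maintains undifferentiated spermatogonia, by 2.57 on the log2 scale. Glis3, a zinc finger factor needed for the first spermatogonia, went from 90.1 ± 6.46 CPM (SD, n = 3) to 971 ± 81.8 CPM (SD, n = 4), a log2 rise of 3.43, which was 0.76 larger than in heterozygous cells (adjusted p of the difference 0.0466, a call lost when any of 10 single libraries was left out, and lost with all 20 libraries at 0.196). Among the surface proteins in the list, Cd9 rose by 2.80, Mcam by 2.34, Cdh1 (E-cadherin) by 1.95 and Epcam by 1.63, whereas Tspan8 and Shisa6 fell. The 5 members that fell were Upp1 (-2.63), Tspan8 (-1.69), Rarg (-1.37), Shisa6 (-0.77) and Taf4b (-0.38). Foxo1, Neurog3, Sox3, T and Thy1 did not pass the test, at log2 differences of 0.03, 1.97, 1.18, 0.32 and -0.59.

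Genes that growth factor signals switch on within minutes were higher at d2 as well. Of 25 immediate early and stress genes, 16 rose and 2 fell (14 and 3 without d2 replicate 2), with a median of 1.53 (2.19 in heterozygous cells). Egr2 was at 10.3, 8.10 and 7.29 CPM at e18.5 and at 157, 196, 251 and 178 CPM at d2, and Egr3 rose by 5.50 from 2.46 ± 1.41 to 114 ± 23.5 CPM (SD, n = 3 and 4). Egr1 rose by 3.76, Ier2 by 4.41, Fos by 3.28, Junb by 2.79 and the mRNA decay factor Zfp36 by 2.71. Spry4, an inhibitor of receptor tyrosine kinase signalling that is itself induced by it, was at 1.51, 4.54 and 4.14 CPM at e18.5 and at 113, 84.8, 124 and 132 CPM at d2. Jund (-0.82) and Klf6 (-0.94) fell, and the heat shock genes Hspa1a (-0.73), Hspa1b (-0.37), Dnajb1 (0.18) and Hspb1 (0.40) did not pass the test, nor did Myc (0.12).

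The cell cycle machinery rose almost as a block. Of 43 proliferation genes, 39 rose and 2 fell (40 and 1 without d2 replicate 2), with a median of 1.77 against 1.53 in heterozygous cells. Mki67, the antigen found in cycling cells, was at 131, 202 and 208 CPM at e18.5 and at 3020, 1815, 2805 and 2744 CPM at d2, with replicate 2 the lowest of its group and still far above e18.5 (log2 3.85). The mitotic kinase Cdk1 was at 2.60, 1.28 and 2.79 CPM and then at 39.5, 19.5, 26.2 and 31.3 CPM. Rrm2, the subunit of ribonucleotide reductase that limits the supply of deoxynucleotides, was at 2.18, 3.75 and 2.61 CPM at e18.5 and at 70.9, 59.8, 78.5 and 73.0 CPM at d2 (log2 4.64 ± 0.35 SE, adjusted p = 1.51e-09). The replication genes Cdc6 (4.12), Mcm2 (2.67), Pcna (2.65), Mcm5 (2.61) and Mcm6 (1.30) rose, as did Birc5 (3.34), Aurkb (2.65), Plk1 (2.32) and Ccnb1 (1.97) of mitosis. Cenpe (-0.60) and Cenpf (-0.69) fell, and Bub1 (0.36) and Nusap1 (0.10) did not pass the test.

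E2F factors are the best known activators of such genes, so the 250 bases before the start site were searched for an E2F motif, TTTGGCGC or TTTCGCGC, on both strands (RefSeq, GRCm38.p6). This search was chosen after the values were seen, and its windows come from another build than the counts. Of 34 proliferation genes with a promoter in the table, of the 43 tested, 3 held a match (8.82%), against 184 of all 27025 promoters (0.681%), 149 of 13860 promoters of genes tested (1.08%), 61 of 3562 of genes called higher (1.71%) and 29 of 3877 of genes called lower (0.748%). The 3 are shown because they are the only ones of the list with a match. The Mcm5 window (chr8:75109259-75109508, plus strand) holds a pair of overlapping matches on opposite strands, the Mcm6 window (chr1:128359706-128359955, minus strand) an overlapping pair and a further match, and the Cdk1 window (chr10:69352913-69353162, minus strand) 1 match. The fourth sequence is the promoter of Zfp36 (chr7:28379229-28379478, minus strand), the only one of 19 immediate early promoters found, of 25 genes tested, that holds a CArG box, the element bound by serum response factor, which 380 of all 27025 promoters hold (1.41%). All are printed 5′ to 3′ on the gene's strand with the matched bases in capitals.
Mcm5: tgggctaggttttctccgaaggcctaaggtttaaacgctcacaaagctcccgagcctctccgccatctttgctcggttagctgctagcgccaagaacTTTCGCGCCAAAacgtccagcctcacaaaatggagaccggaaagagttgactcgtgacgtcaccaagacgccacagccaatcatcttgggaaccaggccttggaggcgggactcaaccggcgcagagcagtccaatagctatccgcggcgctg
Mcm6: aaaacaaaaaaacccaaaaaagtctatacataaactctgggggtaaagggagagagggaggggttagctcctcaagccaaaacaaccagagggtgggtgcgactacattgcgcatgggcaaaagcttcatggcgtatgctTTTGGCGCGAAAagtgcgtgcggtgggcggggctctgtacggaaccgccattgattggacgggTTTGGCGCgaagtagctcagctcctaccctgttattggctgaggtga
Cdk1: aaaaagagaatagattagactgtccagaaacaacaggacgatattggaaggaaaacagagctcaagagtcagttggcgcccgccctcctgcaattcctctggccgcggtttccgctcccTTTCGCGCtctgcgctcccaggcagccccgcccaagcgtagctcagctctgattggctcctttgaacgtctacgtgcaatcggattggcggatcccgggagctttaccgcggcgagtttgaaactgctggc
Zfp36: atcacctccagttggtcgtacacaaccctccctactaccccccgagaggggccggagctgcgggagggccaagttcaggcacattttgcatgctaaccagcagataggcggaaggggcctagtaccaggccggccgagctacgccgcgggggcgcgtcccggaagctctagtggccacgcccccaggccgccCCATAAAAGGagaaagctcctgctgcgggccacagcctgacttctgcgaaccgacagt
A match describes these letters only. In Mcm5 the matches begin 153 and 149 bases before the start site, in Mcm6 110, 106 and 47, in Cdk1 131 and in Zfp36 58.

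Brakes on the cell cycle went both ways. Of 13 cell cycle inhibitors, 6 rose and 4 fell (6 and 3 without d2 replicate 2). Cdkn1a, whose protein p21 halts the cycle after p53 activation, was at 0.921, 2.27 and 0.900 CPM at e18.5 and at 30.9, 10.3, 19 and 23.1 CPM at d2 (log2 3.94), and Wee1 (2.15), Btg2 (2.18) and Btg1 (1.27) rose as well. Cdkn2c (-1.63), Rb1 (-0.72), Cdkn1b (-0.70) and Rbl2 (-0.67) fell. Trp53 itself rose by 2.82, and of the 26 genes of the p53 and apoptosis list 13 rose and 4 fell (11 and 3 without d2 replicate 2), Pmaip1 (3.23) and Eda2r (3.68) among the first, Perp (-1.97) and Fas (-4.72) among the second. Mdm2 (-0.04) and Ccng1 (0.34), both p53 targets, did not pass the test.

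Genes of DNA methylation moved in both directions: over the 15 tested members of the list, 7 rose and 5 fell (median 0.48, 0.47 in heterozygous cells). Dnmt3l, the cofactor that directs de novo methylation in germ cells, was at 80.3, 95.6 and 87.3 CPM at e18.5 and at 6.22, 8.95, 9.60 and 6.13 CPM at d2 (log2 -3.52 ± 0.38 SE, adjusted p = 6.64e-07). Dnmt3a fell from 1294 ± 249 to 458 ± 75.0 CPM (SD, n = 3 and 4), whereas Dnmt3b rose by 1.56. Uhrf1, which brings Dnmt1 to replicated DNA, rose from 13 ± 2.89 to 203 ± 25.4 CPM (SD, n = 3 and 4), and Hells (1.93) and Dnmt1 (0.75) rose with it. The oxidases Tet2 (-1.98) and Tet3 (-1.33) fell, and Tet1 (0.45) did not pass the test.

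The piRNA pathway fell in more members than it rose, 12 against 7 of 25 (median -0.40, -0.26 in heterozygous cells). Piwil4, the nuclear PIWI protein of fetal germ cells, was at 177, 175 and 224 CPM at e18.5 and at 37.5, 44.4, 51.2 and 46.1 CPM at d2 (log2 -2.10 ± 0.18 SE, adjusted p = 3.38e-09). The pathway members Tdrd9 (-1.40), Mael (-1.17) and Tdrd1 (-1.05) fell, and the cytoplasmic Piwil2 fell by 0.74. Asz1 (1.42), Tex19.1 (1.34), Gtsf1 (1.31) and Pnldc1 (1.15), the trimmer of piRNA ends, rose. For Gtsf1, a small zinc finger protein that acts with PIWI proteins, the rise from 28.1 to 69.5 CPM was 1.2 larger than the change in heterozygous cells (adjusted p 0.016), which stood at 86.8 and 93.6 CPM. That call was lost without knockout e18.5 replicate 2 or 3 (highest adjusted p 0.06). Of 22 genes of heterochromatin and histone-based repeat silencing, 14 rose and 5 fell (median 0.63, 0.36 in heterozygous cells). Chaf1b (3.46), a chaperone that loads histones behind the replication fork, and Pphln1 (2.61), a subunit of the HUSH complex, rose most. Ehmt2, the histone H3 lysine 9 methyltransferase G9a, fell by 1.93, from 291 ± 1.88 to 76.5 ± 25.1 CPM (SD, n = 3 and 4), and Mphosph8, another HUSH subunit, by 0.96.

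Genes of pluripotency and primordial germ cells moved in both directions, with 6 higher and 6 lower of 24 (7 and 7 without d2 replicate 2) and a median of -0.10, shares near those of all genes. Nanog fell from 5.6 ± 1.05 to 0.258 ± 0.190 CPM (SD, n = 3 and 4), a log2 fall of 4.39, and Utf1 (-2.26) and Pou5f1 (-1.25) fell. Dppa3 was at 10.1, 26.8 and 27.0 CPM at e18.5 and at 3.33, 15.1, 2.70 and 5.53 CPM at d2, so that the 2 groups overlap, with d2 replicate 2 the highest of its age (log2 -1.68). Sall4 (1.05), Tfap2c (1.99) and Sox2 (2.82) rose. Among 19 genes of fetal male germ cell fate, 9 rose and 5 fell. The activin receptor Acvr2b had one of the largest decreases, from 146, 106 and 102 CPM to 5.22, 8.29, 6.76 and 9.32 CPM, and the Nodal pathway members Tdgf1 (-2.06) and Lefty2 (-1.94) and the deadenylase subunit Cnot3 (-1.96) fell as well. Fgfr2 (2.06), Fgf9 (1.69), Dazl (1.09) and Cnot1 (0.81) rose, and Nanos2 (-0.26), the RNA-binding protein of the male fate, did not pass the test.

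Among 20 genes of spermatogonial differentiation, 9 rose and 1 fell (11 and 2 without d2 replicate 2). The D cyclins Ccnd2 (3.99) and Ccnd1 (3.21) rose most, followed by Stra8 (3.13), the gene induced by retinoic acid, and by the transcription factor genes Dmrt1 (2.68) and Sohlh2 (2.44). Kit, the receptor of the differentiating spermatogonium (-0.31), and Sohlh1 (-0.24) did not pass the test, and Stk31 fell (-0.50). Meiotic prophase genes moved in both directions, with 15 higher and 8 lower of 29 (15 and 7 without d2 replicate 2), at a median of 0.40 against -0.31 in heterozygous cells. Sycp3, a protein of the axis of meiotic chromosomes, was at 75.5, 51.5 and 69.8 CPM at e18.5 and at 261, 207, 199 and 232 CPM at d2. In heterozygous cells it was at 89.5 and 145 CPM, and its rise in the knockout was 1.08 larger (adjusted p of the difference 0.0148). That call was lost without knockout e18.5 replicate 2 and with all 20 libraries (highest adjusted p 0.0689). Syce2 (2.66), Syce3 (2.60), Sycp1 (1.47) and Dmc1 (1.24) rose, whereas Prdm9 (-1.96), which places the recombination hotspots, Msh5 (-1.15), Rec8 (-1.14) and Spo11 (-0.67) fell. Of 29 genes of homologous recombination and crosslink repair, 14 rose and 2 fell, with Exo1 (2.12) and Brca1 (1.55) among the increases.

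Of 24 germline genes whose promoters are known to be controlled by DNA methylation, 14 rose and 8 fell (14 and 7 without d2 replicate 2). Sycp1, Tex19.1 and Asz1 stand among the increases above, and Brdt, a bromodomain protein of the later male germline, was the second largest decrease after Dnmt3l, from 881, 959 and 1132 CPM to 158, 221, 155 and 153 CPM. Of 35 imprinted genes, 6 rose and 11 fell (6 and 10 without d2 replicate 2). The maternally expressed noncoding RNA Meg3 fell by 2.57, with Rtl1 (-2.49), Mirg (-1.86) and Rian (-1.50) of the same cluster, and Grb10 fell by 2.14 from 2143 ± 213 to 486 ± 101 CPM (SD, n = 3 and 4). H19 (1.94), Igf2 (1.71), Gnas (1.61) and Mest (1.36) rose. Of 11 tested genes of the cleavage stage and of MERVL, 1 rose (Eif1a, 0.92) and 2 fell (Spz1, -5.70, and Zscan4d, -3.38), and 3 fell without d2 replicate 2 and 6 by limma-voom. Dux (-1.52), which turns on this programme in the embryo, did not pass the test.

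**Figure D2:**
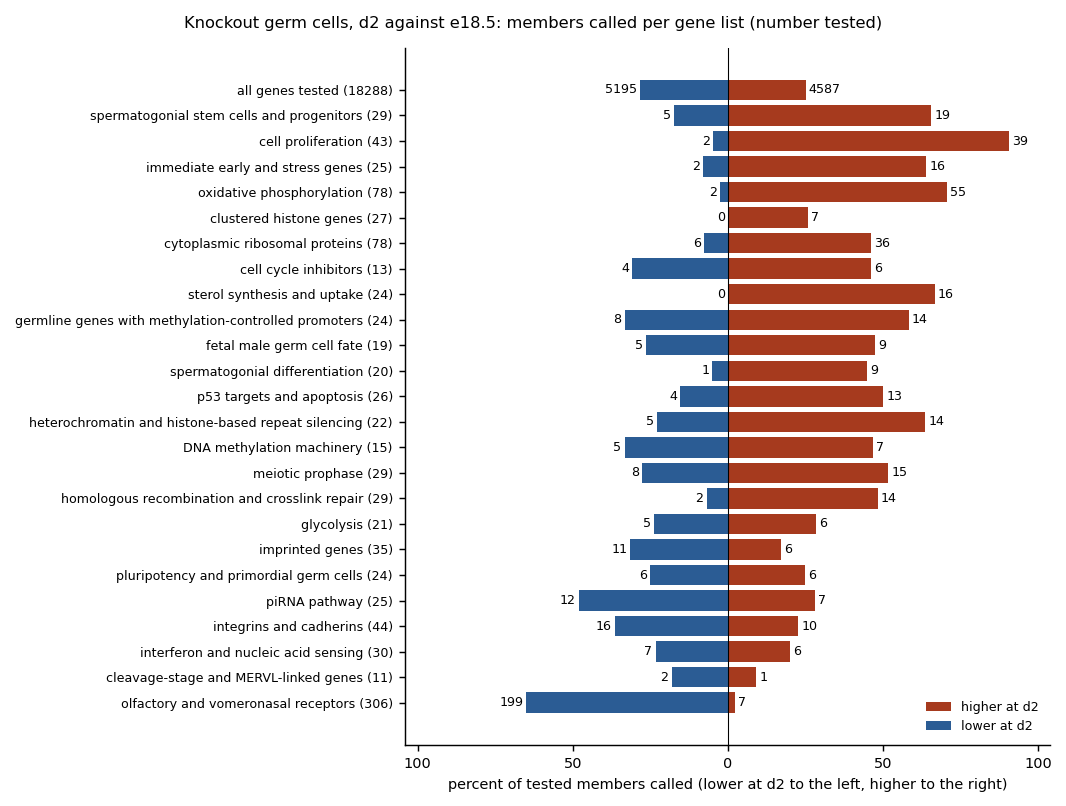
Percent of the tested members of each gene list called higher (to the right) and lower (to the left) at d2 than at e18.5 in the knockout, with the shares over all genes tested, 25.1% and 28.4%. Proliferation (39 higher, 2 lower of 43) and oxidative phosphorylation (55 and 2 of 78) lie far to the right. Olfactory and vomeronasal receptors (7 and 199 of 306) lie far to the left, where many members passed the filter through the e18.5 groups alone. With at least 10 counts summed over the libraries of each age the split is 5 and 63 of 161. That subset could still pass the filter in the same way, so neither split lends support to a direction.

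Genes of energy and protein supply rose in number. Of 78 tested genes of oxidative phosphorylation, 55 rose and 2 fell (52 and 2 without d2 replicate 2), with a median of 1.00 (0.85 in heterozygous cells). Uqcr10 (2.73) of complex III and Ndufa1 (2.41) of complex I were among the increases, and Cox5a of complex IV was at 24.7, 26.1 and 17.9 CPM at e18.5 and at 120, 106, 84.4 and 113 CPM at d2. Uqcrc1 (-0.67) and Uqcrfs1 (-0.45) fell. Of 78 cytoplasmic ribosomal protein genes, 36 rose and 6 fell (38 and 6 without d2 replicate 2). Rpl41 rose by 2.26 and Rpl39l by 1.48, while Rpl4 fell from 2648 ± 149 to 1283 ± 227 CPM (SD, n = 3 and 4). Many ribosomal protein genes have near-identical processed copies among which reads can be split, which makes the value of a single member uncertain. Glycolysis showed no common direction, with 6 higher and 5 lower of 21, Ldhb up by 2.92 and Ldha down by 1.01. Of 24 genes of sterol synthesis and uptake, 16 rose (15 without d2 replicate 2), among them Lss (2.81), Stard4 (1.96) and Cyp51 (1.9). The sterol regulatory element, searched on both strands with any base at its sixth position, was found on neither strand in the 16 promoters present for these 24 genes, and 53 of all 27025 promoters held it (0.196%).

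Clustered histone genes, whose RNAs mostly lack a poly(A) tail, were thinly counted, and 27 of 68 could be tested. Of these, 7 rose (6 without d2 replicate 2), with Hist1h1a at 1.17, 0.494 and 0.810 CPM at e18.5 and at 6.88, 5.27, 7.03 and 6.82 CPM at d2. Hist2h2ab had no count in the knockout e18.5 libraries and was at least 9.02-fold higher at d2, against a floor of 3 counts over that group. Of 30 genes of the interferon response and nucleic acid sensing, 6 rose and 7 fell (6 and 9 without d2 replicate 2, and 6 and 12 by limma-voom). The RNA sensor Ddx58 (RIG-I) fell from 206, 157 and 146 CPM to 14.7, 47.4, 27.4 and 23.7 CPM, and Tmem173 (STING, -3.72), Zbp1 (-2.78), Usp18 (-2.46) and Tlr3 (-1.51) fell, whereas Dhx58 (2.31), Irf1 (1.99), Oasl2 (1.66) and Trim25 (1.55) rose. The effector genes Isg15 (-1.46), Mx1 (-0.78) and Ifit1 (-0.45) did not pass the test.

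Integrins and cadherins, the adhesion receptors, fell in 16 and rose in 10 of 44 (15 and 9 without d2 replicate 2). The laminin receptor chains Itga6 (1.78) and Itgb1 (1.02) and the cadherins Cdh1 and Cdh3 (1.52) rose, and Itga11, a collagen receptor chain, fell by 3.13. The falling cadherins included Cdh6 (-4.05), Cdh7 (-3.65), Cdh22 (-3.46), Cdh9 (-2.90) and Cdh18 (-2.23), most of them better known from the nervous system. Stromal, endothelial and Leydig markers, some of which share such tissues, moved as given above, Postn for example falling from 60.8 ± 10.6 to 10.1 ± 6.54 CPM (SD, n = 3 and 4), and their part in these counts was not tested.

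Olfactory and vomeronasal receptor genes were mostly too low to test. Of 1454 in the tables, 306 could be tested, and 199 of these fell and 7 rose (201 and 7 without d2 replicate 2), with a median of -3.58 (-3.88 in heterozygous cells). Since 77 of the 306 had no count in 1 of the knockout groups, the median was taken again with these at the bound that 3 counts over the group allow, and was -3.39. The levels behind it were low at e18.5: Vmn2r100 was at 16.8, 17.4 and 10.7 CPM and Olfr1033 at 7.70, 7.70 and 8.82 CPM, and both had no count in any d2 knockout library, which makes them at least 177-fold and 95.8-fold lower. A receptor that passed the filter through the e18.5 groups alone could hardly be called higher at d2, so these counts lend no support to a direction. Among the 161 receptors with at least 10 counts summed over the libraries of each age, 63 fell and 5 rose, at a median of -1.69. These too could pass the filter through the e18.5 groups alone, so this split lends no support to a direction either.

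By the naming rule, the 10 largest decreases among well counted genes were in Zan, Dcc, Cfap57, Nlrp9b, Bcl6, Acvr2b, Nrap, Pappa2, Mia2 and Chl1. Zan, a sperm protein that binds the egg coat, was at 130, 171 and 146 CPM at e18.5 and at 1.89, 8.42, 3.24 and 3.71 CPM at d2 (log2 -5.13 ± 0.49 SE, adjusted p = 9.04e-07). Dcc, the netrin receptor of growing axons, was at 150, 150 and 142 CPM and then at 3.66, 11.6, 3.79 and 2.76 CPM, a log2 fall of 4.79, or of 5.45 without d2 replicate 2. The highest d2 library was replicate 2, with its 799 Tex15 counts, in 7 of the 10 genes, replicate 4 in Acvr2b, replicate 3 in Mia2 and replicate 1 in Chl1. It was replicate 2 in Zan, Dcc, Cfap57 and Bcl6, and in Nlrp9b (267, 233 and 280 CPM, then 7.88, 22.0, 9.06 and 20.3), Nrap (213, 216 and 197 CPM, then 7.0, 24.7, 16.8 and 10.1) and Pappa2 (206, 229 and 239 CPM, then 7.66, 28.4, 17.7 and 11.1). How often replicate 2 was the highest d2 library over all genes lower at d2 was not counted, so this cannot be called particular to these genes. Cfap57, a protein of motile cilia, went from 102 ± 5.46 to 5.42 ± 0.655 CPM (SD, n = 3 and 4), and the transcriptional repressor Bcl6 from 94.1 ± 10.2 to 5.89 ± 2.61 CPM. Chl1, a neural cell adhesion molecule, fell by 3.64 from 202 ± 26.4 to 16.3 ± 5.51 CPM.

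For 3 of the 20 genes with the largest differences the change of gene definitions must be set beside the value. Cmtr1 was at 0.921, 1.78 and 1.80 CPM at e18.5 and at 103, 130, 121 and 107 CPM at d2, and Adnp at 8.21, 7.70 and 6.30 CPM and then at 521, 492, 515 and 512 CPM. Of the tables of the 2 ages, that of e18.5 alone holds the read-through symbols Rnf8-cmtr1 and Dpm1-adnp, which overlap these genes, and they held 0.397 and 0 CPM in the knockout at e18.5. How reads shared by overlapping symbols were counted is not given, so these low values do not show how many reads the overlap took. The e16.5 table has the same row names as that of e18.5. On a scale common to all 20 libraries, Cmtr1 had knockout means of 4.66, 1.45 and 111.5 CPM at e16.5, e18.5 and d2. Adnp had means of 10.3, 7.17 and 493 CPM. Whether the overlap lowered the e18.5 values of Cmtr1 and Adnp was not tested. Heterozygous cells differed by 6.55 and 5.85 for these genes, and the difference between genotypes did not pass the test (adjusted p 0.81 and 0.58). Mia2 was at 158, 145 and 135 CPM at e18.5 and at 2.78, 3.95, 36.2 and 2.68 CPM at d2 (log2 -3.72, and -5.55 without d2 replicate 3), while Ctage5, an earlier symbol tied to the same gene, is in the d2 table alone, at 187 ± 22.0 CPM (SD, n = 4). No such symbol was found for Hs3st3b1, a heparan sulphate sulphotransferase, which rose by 4.83, from 1.84, 2.27 and 3.87 CPM to 88.5, 60.0, 75.2 and 78.8 CPM.

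Repeats took up 61.1 ± 3.43% (SD, n = 3) of all counts at e18.5 and 50.2 ± 3.12% (SD, n = 4) at d2, with no overlap between the ages. The difference of -10.9 percentage points had p = 0.0571 in a two-sided exact permutation test, the smallest value that 3 against 4 libraries allow. Heterozygous cells showed a similar drop, from 58.4 ± 3.08% (SD, n = 3) to 48.0 ± 3.51% (SD, n = 4), also with no overlap. With library sizes taken from genes, 805 of 1137 repeat names tested (70.8%) were called, 14 higher (1.23%) and 791 lower (69.6%) at d2, at a median log2 difference of -0.66 (705 called without d2 replicate 2, 14 higher and 691 lower). The libraries of the 2 ages did not overlap for 66.2% of the names. Counts of names by repeat group below are to be read against the 1.23% called higher and 69.6% called lower. In heterozygous cells 79.2% of the names and 80.4% of the families were called, the latter all lower. The direction of many depends on this scaling: with the repeats' own TMM factors 228 were called higher and 297 lower, and with their own totals 174 and 320. Of 51 families, 35 were called (68.6%), 2 higher (3.92%) and 33 lower (64.7%). With the repeats' own TMM factors the split was 17 higher and 16 lower, with their own totals 19 and 8, and leaving out e18.5 replicate 2 brought the count to 21. The L1 family fell by 1.11 and ERV1 by 1.17 (by 0.48 and 0.52 with the repeats' own totals). ERVK and ERVL fell by 0.73 each and did not pass the test with the repeats' own totals (-0.09 and -0.08). The tRNA (0.43) and rRNA (0.44) families rose, and the SINE families B2 (-0.12) and Alu (-0.10) did not pass the test. B2 and Alu turned positive under the repeats' own scalings (0.41 and 0.42 with TMM factors).

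**Figure D3:**
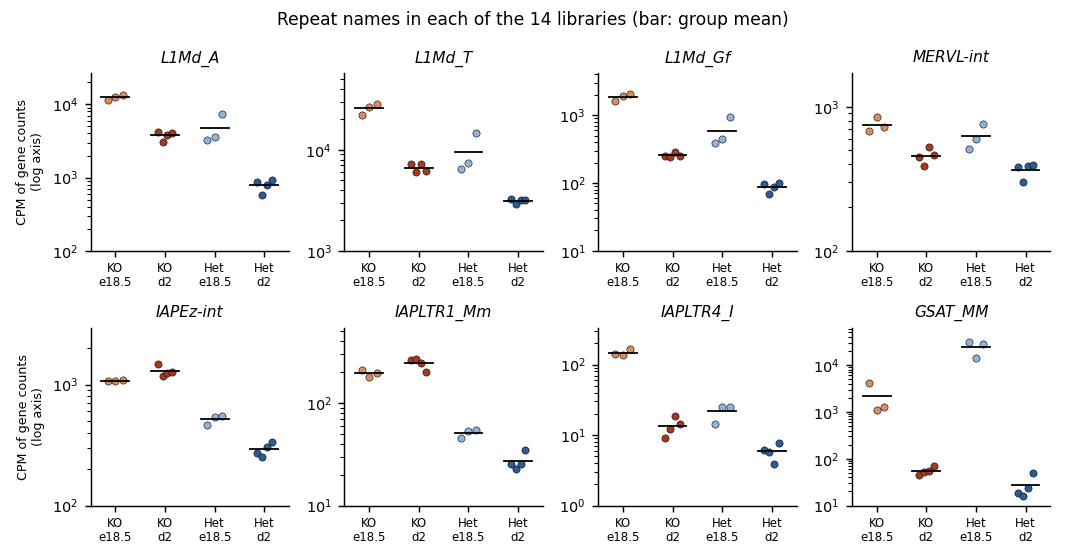
CPM (log axis) of 8 repeat names in each of the 14 libraries, by genotype and age, with a bar at each group's mean. In the knockout L1Md_A, L1Md_T, L1Md_Gf, IAPLTR4_I and GSAT_MM are lower in every d2 library than in every e18.5 library, and IAPEz-int lies at or above its e18.5 level.

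Young L1 elements, the long interspersed retrotransposons that still move in the mouse, fell in all 6 of their names, with a median of -1.99 (-1.89 in heterozygous cells). L1Md_Gf was at 1638, 1937 and 2076 CPM at e18.5 and at 251, 238, 284 and 253 CPM at d2 (log2 -2.88 ± 0.19 SE, and -2.27 with the repeats' own TMM factors). L1Md_A was at 11490, 12600 and 13320 CPM and then at 4165, 3068, 3797 and 4022 CPM (log2 -1.73 ± 0.19 SE, and -1.12 with the repeats' own factors). L1Md_F (-2.33), L1Md_F2 (-2.02), L1Md_T (-1.95) and L1Md_F3 (-1.85) fell by similar amounts. All 6 were called lower at d2 also with the repeats' own TMM factors and with their own totals.

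Among retroviruses with long terminal repeats, 12 of 16 IAP names, 5 of 5 MusD and ETn names, 7 of 7 MERVL names (6 without d2 replicate 2) and 22 of 24 other names with internal parts fell. Over all repeat names tested 69.6% were called lower, and the IAP count is near that share. With the repeats' own TMM factors all 5 MusD and ETn names and 20 of the other 24 were called lower and 2 of the 24 higher, whereas 9 IAP names were lower and 4 higher, and 2 MERVL names were lower and 1 higher. IAPLTR4_I was at 140, 139 and 166 CPM at e18.5 and at 9.22, 12.1, 18.5 and 14.3 CPM at d2, which at log2 -3.46 ± 0.24 (SE) was the largest fall among the names chosen by the smallest p. ETnERV3-int (-2.73), MURVY-int (-2.56), IAPEY3-int (-2.41), MuRRS-int (-2.26), ETnERV-int (-2.23), MMETn-int (-2.21) and RLTR6-int (-2.20) fell less. IAPEz-int, the internal part of the active IAP elements, went the other way: it was at 1073, 1072 and 1088 CPM at e18.5 and at 1468, 1184, 1237 and 1261 CPM at d2, with no overlap between the ages but without passing the test (log2 0.26 ± 0.18 SE, adjusted p = 0.199). It was called higher with the repeats' own scalings and by limma-voom. Its terminal repeat IAPLTR1_Mm was at 207, 178 and 196 CPM and then at 263, 268, 246 and 200 CPM (log2 0.33, adjusted p = 0.119), with overlapping groups.

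Of 36 SINE names, 2 rose and 7 fell (2 and 6 without d2 replicate 2). With the repeats' own TMM factors 30 of the 36 were called higher, so the direction of the SINEs rests on the scaling. Of 5 tested satellite names, 1 rose and 2 fell, with 2 in each direction under the repeats' own factors. The major satellite GSAT_MM, the repeat of mouse pericentromeres, was at 4052, 1116 and 1293 CPM at e18.5 and at 45.4, 52.7, 55.2 and 70.1 CPM at d2 (log2 -5.27 ± 0.59 SE, and -4.42 without e18.5 replicate 1). SYNREP_MM rose by 1.48, but its d2 libraries stood at 33.6, 8.16, 9.87 and 49 CPM against 5.61, 8.89 and 12.9 CPM at e18.5, and the groups overlap. The tables of names and of families were counted separately: the heterozygous e18.5 libraries hold 24630 CPM of GSAT_MM but 8445 CPM of the whole Satellite family, so values of the 2 tables cannot be added.

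**Figure D4:**
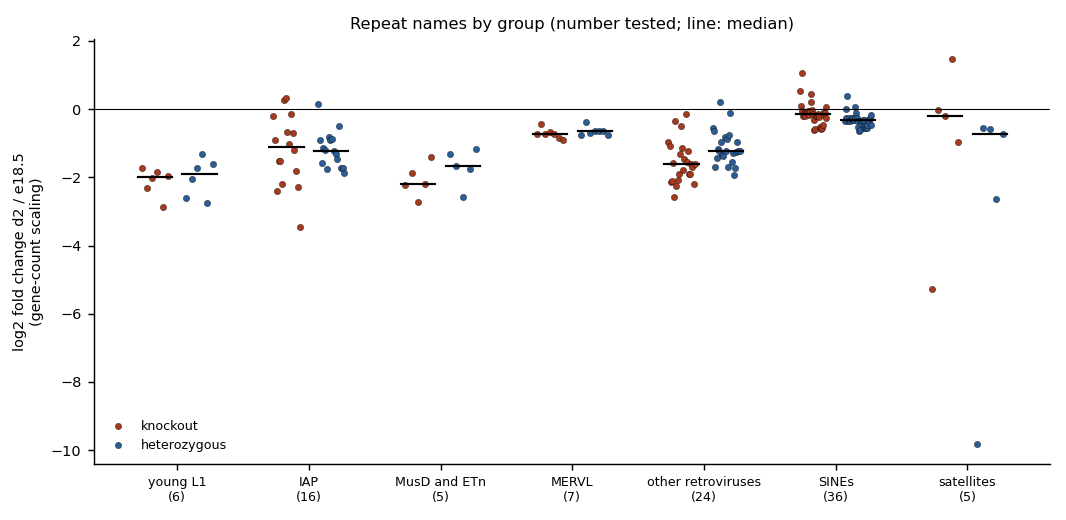
Log2 difference between d2 and e18.5 of each repeat name by group, in knockout and in heterozygous cells, with a line at the median of each group. Young L1 names lie near -2 in both genotypes, and SINE names lie near 0 with library sizes taken from genes.

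Most of what changed with age in the knockout also changed in heterozygous cells, where 9114 genes (49.8%) were called, 4307 higher and 4807 lower, from other libraries. Both genotypes of an age stand in the same table and were fitted together, so a difference of gene definitions can enter both. Genes called higher in both numbered 3457, which is 75.4% of those of the knockout and 80.3% of those of heterozygous cells, and genes called lower in both 3716 (71.5% and 77.3%). In 23 genes the knockout rose and the heterozygous cells fell, and in 4 the opposite. Of repeat names, 754 were lower in both (95.3% and 84.4%).

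**Figure D5:**
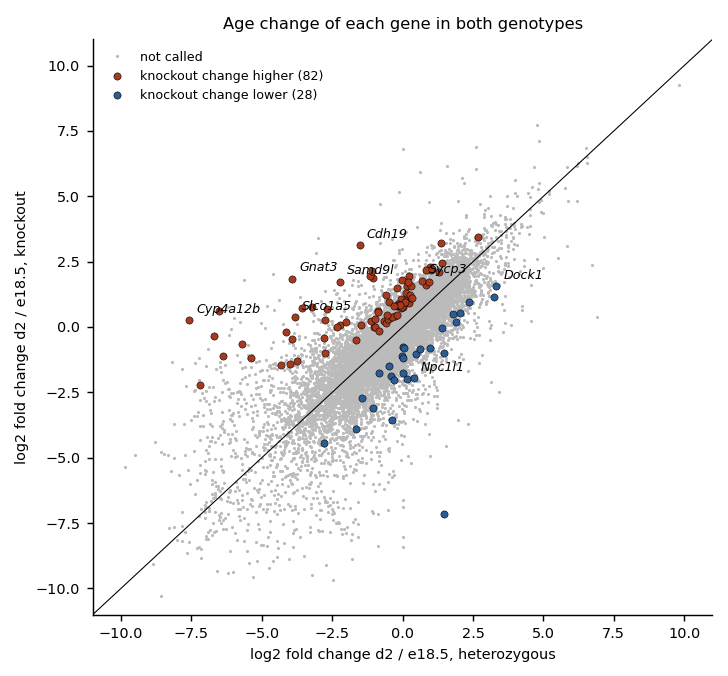
Log2 difference between d2 and e18.5 in heterozygous cells (x axis) and in the knockout (y axis) for all 18288 genes tested, with the 82 genes whose change was higher in the knockout in red and the 28 whose change was lower in blue. Most genes lie along the diagonal.

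The difference between the age changes of the 2 genotypes was called in 110 genes (0.601%): it was higher in the knockout for 82 (0.448%) and lower for 28 (0.153%). Of the 82, 14 rose in the knockout and fell in heterozygous cells, 25 rose in the knockout and were not called in the other, 23 were not called in the knockout and fell in the other, 13 rose in both and 7 fell in both. Of the 28, 12 fell in the knockout alone, 6 fell in both, 5 rose in both, 3 fell in the knockout and rose in heterozygous cells, and 2 rose in heterozygous cells alone. This number moved with single libraries: it was 239 (171 higher and 68 lower) without d2 knockout replicate 2, 43 and 51 without heterozygous e18.5 replicates 1 and 3, 29 and 25 without knockout e18.5 replicates 2 and 3, 55 and 59 without knockout d2 replicates 1 and 3, and 64 without heterozygous d2 replicate 1. DESeq2 called 385, of which 249 were higher. At an unadjusted p under 0.05 there were 2365.

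In several of the larger differences a gene held its level or rose in the knockout and fell in heterozygous cells. Samd9l, an antiviral gene induced by interferon, was at 31.6, 21.5 and 20.1 CPM at e18.5 and at 94.8, 70.9, 74.1 and 86.0 CPM at d2 in the knockout, and at 22.4, 14.4 and 19.7 CPM and then 2.54, 2.98, 4.51 and 6.18 CPM in heterozygous cells. The genotypes were thus near each other at e18.5 and apart at d2 (difference of 3.97 ± 0.37 SE, adjusted p = 3.75e-06). Cdh12, a cadherin of the brain, was at 64.6, 62.5 and 64.6 CPM and then at 116, 100.2, 112 and 110 CPM in the knockout, against 9.93, 11.8 and 29.6 CPM and then 3.38, 0.873, 1.54 and 1.75 CPM. Gnat3, the G protein subunit of taste cells, went from 20.3 ± 1.33 to 73.1 ± 16.8 CPM in the knockout (SD, n = 3 and 4) and from 6.01 to 0.429 CPM in heterozygous cells (difference of 5.77 ± 0.69 SE, and 7.65 without heterozygous d2 replicate 4). Cdh19 rose to 85.8, 41.5, 26.0 and 47.7 CPM from 6.70, 4.25 and 6.12 CPM in the knockout and was between 0.211 and 1.68 CPM in the heterozygous libraries (difference of 4.67, which limma-voom did not call, adjusted p 0.0632). Cyp4a12b held its level in the knockout, at 18.5 ± 2.49 and 22.1 ± 4.44 CPM (SD, n = 3 and 4), and had no count in heterozygous cells at d2, at least 30.2-fold lower there than at e18.5. Slco1a5 (0.38) and Vmn1r195 (-0.65) were not called in the knockout and fell in heterozygous cells (differences of 4.21 and 5.06), whereas Abcb11 fell in both, by 2.21 in the knockout, and more in heterozygous cells (difference of 4.98). Without heterozygous e18.5 replicate 3 the difference was 3.56 for Slco1a5 and 3.35 for Cdh12, and without heterozygous d2 replicate 3 it was 7.46 for Vmn1r195.

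Among the 28 genes with a lower change in the knockout, Npc1l1, a sterol transporter, was at 30.1, 50.4 and 62.5 CPM at e18.5 and at 15.5, 8.42, 9.19 and 15.8 CPM at d2 in the knockout, and between 10.9 and 19 CPM in every heterozygous library (difference of -2.35 ± 0.39 SE, adjusted p = 0.0049). Impg2 fell from 81.5 ± 13.6 to 9.41 ± 1.26 CPM (SD, n = 3 and 4) in the knockout and from 24.5 to 12 CPM in heterozygous cells. H2-D1, a class I histocompatibility gene, fell in the knockout, from 8.60 to 4.29 CPM, and rose in heterozygous cells, from 4.86 to 13.5 CPM. Abi3 and Dock1 rose in both genotypes, less in the knockout. Mrc1, a macrophage receptor and one of the markers fixed for white blood cells, was lower by 1.54 in the same contrast (adjusted p 0.0148), from 75.3 to 36.3 CPM in the knockout and from 22.8 to 31.9 CPM in heterozygous cells (lost without knockout e18.5 replicate 3, adjusted p 0.06). Among the genes with a lower change, Npc1l1 passed the test whichever library was left out, whereas Impg2 lost it without knockout e18.5 replicate 3 (adjusted p 0.0544). H2-D1 and Abi3 lost it without knockout e18.5 replicate 2 or 3 or heterozygous e18.5 replicate 1 (highest adjusted p 0.0627 and 0.0759), and Dock1 without any of 8 libraries (highest 0.115).

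The age change of 11 of 1137 repeat names differed between genotypes (0.967%), with 7 higher in the knockout (0.616%) and 4 lower (0.352%). IAPEz-int, with the knockout levels given above, fell in heterozygous cells from 464, 541 and 545 CPM to 271, 254, 307 and 338 CPM, so that the ratio of the genotypes widened (difference of 1.08 ± 0.26 SE, adjusted p = 0.005). Its terminal repeats IAPLTR1_Mm (1.25) and IAPLTR2a (1.17) differed in the same direction. The similarly named IAPLTR1a_Mm (0.20), IAPLTR2_Mm (0.21) and IAPLTR2b (0.76) did not pass the test of the difference (adjusted p 0.998, 0.998 and 0.279). Unlike IAPEz-int, they fell with age in the knockout (-0.68, -1.02 and -0.69). For IAPLTR4_I (-1.58), MURVY-int (-1.33), MuRRS-int (-1.28) and RLTR6-int (-0.99) the knockout fell more, from e18.5 levels that were above those of heterozygous cells, as for IAPLTR4_I with 148 ± 15 against 21.7 CPM. L1Md_A did not pass the test of the difference (0.86 ± 0.26 SE, adjusted p = 0.0808, though it did by limma-voom and without knockout d2 replicate 2, heterozygous d2 replicate 4 or heterozygous e18.5 replicate 1 or 2), nor did L1Md_T (-0.35) or L1Md_Gf (-0.13). GSAT_MM fell from 30830, 14480 and 28600 CPM to 18.5, 16.3, 23.7 and 50.4 CPM in heterozygous cells, more than in the knockout (difference of 4.56, adjusted p = 0.018, and 5.41 without knockout e18.5 replicate 1). That call was lost when heterozygous e18.5 replicate 1 or 3, knockout e18.5 replicate 2 or 3 or heterozygous d2 replicate 3 was left out, and with all 20 libraries (adjusted p = 0.205). Satellite was the only one of 51 families called (1.96%), at 3368 ± 351 and 2293 ± 293 CPM in the knockout (SD, n = 3 and 4; log2 -0.55, and 0.08 with the repeats' own totals) and from 8445 ± 2421 to 1719 ± 118 CPM in heterozygous cells, a difference of 1.74.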

How the data were processed

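Total RNA of sorted male germ cells was sequenced, and the authors deposited 1 table of read counts per gene and per repeat name, and 1 of expected counts per repeat family, for each age. STAR, Bowtie, featureCounts and edgeR and the build mm9 are named per the submitters' processing notes, without versions or roles. How the authors counted reads that align in several places, which bears on repeats and near-identical genes, is not given in the sources used here. The expected (estimated) counts as deposited were mostly not whole (70.1% of family values at e18.5 and 65.6% at d2), and were rounded before testing. Gene symbols found in both tables were joined (23853 of 24495 at e18.5 and 24341 at d2), as were 1217 repeat names.

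The 14 knockout and heterozygous libraries of e18.5 and d2 were fitted together with edgeR 4.0.16 in R 4.3.3 (TMM factors, filterByExpr, robust quasi-likelihood test, Benjamini-Hochberg, threshold 0.05). Repeats used the library sizes and factors of the genes. The contrasts were d2 minus e18.5 in each genotype and the difference of these. Alternatives were DESeq2 1.42.0, limma 3.58.1 (voom with quality weights), median-ratio factors, filters, fits on other sets of libraries, the repeats' own scaling, a replicate block and leaving out each library. Leaving out symbols that a symbol of 1 table touches was chosen after seeing the data, as were the promoter motifs and the counts of each list under the other settings. Floors of 3 counts cover counting error only.

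The libraries and gene lists were chosen with earlier results of these data known. Named genes are Tex15; the 10 increases and 10 decreases with the largest called log2 change, no overlap between knockout libraries and a mean level of 4 or more on the log2 CPM scale, without predicted, Riken, microRNA and small nucleolar RNA symbols or those with under 10 counts in all 7 libraries of an age; up to 4 called members of each list with the smallest p; and up to 10 differences between genotypes a direction at a mean level of 1 or more. Where no member was called, the 2 highest in level are named. Other members of a list that the text names were chosen after their values were seen. Repeats named are the 10 with the smallest p in the knockout (mean level of 5 or more) and in the difference, all young L1 names, IAPEz-int and GSAT_MM, and the families L1, ERVK, ERV1, ERVL, Satellite, Alu and B2. Some genes that this rule names are not reported here. Mitochondrially encoded genes were a list with 0 members in the tables.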

Additional observations from a re-analysis of the deposited data

Results flagged for a closer look

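Of 175 values of named genes, markers and repeats tested in the 4 knockout d2 libraries, 11 had 1 library far from the others by Dixon's ratio, the gap to the nearest library over the whole range, past its 95% critical value, where chance flags about 1 group in 20. Replicate 2, the library with 799 Tex15 counts, was the distant one in 6 of the 11: it was highest for Tex15 (ratio 0.994), MLT1L-int (0.961), Brdt (0.927) and Dcc (0.884), and lowest for Hist1h1a (0.882) and Ccnd1 (0.852). Replicate 3 was highest for Mia2 (0.962), Adgre1 (0.947) and Tdrd1 (0.883). Replicate 1 was highest for Ret (0.866), and replicate 4 lowest for Rhox8 (0.875).

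The age change in the knockout minus that in heterozygous cells passed the test for these named genes and repeats, on the log2 scale by edgeR's interaction contrast. It was higher in the knockout for Cyp4a12b (7.84, a fitted value that depends on the prior count, since it had no count in heterozygous cells at d2), Gnat3 (5.77), Itgbl1 (5.24), Vmn1r195 (5.06), Abcb11 (4.98), Cdh19 (4.67), Sult2a5 (4.23), Slco1a5 (4.21), Cdh12 (3.98) and Samd9l (3.97), and for the repeats GSAT_MM (4.56), SYNREP_MM (4.12), MLT1L-int (3.71), (CAGAT)n (2.78), IAPLTR1_Mm (1.25), IAPLTR2a (1.17) and IAPEz-int (1.08) and the Satellite family (1.74). It was lower for H2-D1 (-2.47), Npc1l1 (-2.35), Mybpc2 (-2.23), Cemip (-2.13), Abi3 (-2.1), Impg2 (-2.07), Neurl1a (-1.79), Camk2b (-1.77), Dock1 (-1.76) and Serinc2 (-1.73), and for IAPLTR4_I (-1.58), MURVY-int (-1.33) and MuRRS-int (-1.28). With single libraries left out, the call ended in 12 of 14 cases for Sult2a5, in 11 for Mybpc2 and Serinc2, in 10 for Cemip, in 8 for Dock1, in 7 for Itgbl1, in 5 for GSAT_MM, in 4 for Camk2b, in 3 for H2-D1, Abi3 and Neurl1a and in 1 for Impg2. The call of SYNREP_MM ended without knockout e18.5 replicate 2 or heterozygous d2 replicate 2 or 4, and that of (CAGAT)n without heterozygous d2 replicate 2 or knockout d2 replicate 2. By limma-voom the calls of Cdh19, Itgbl1, Mybpc2, Sult2a5 and (CAGAT)n ended, and DESeq2 did not call (CAGAT)n (adjusted p 0.262).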

How the results depend on the processing

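Of 180 named results that passed the test, 157 kept it in every setting and 23 lost it in at least 1. Most were named for a large change or a small p in the main fit. The number kept is therefore no rate for all called genes and repeats. Not among the 180 are list members chosen after their values were seen. The differences between genotypes of Glis3, Gtsf1, Sycp3 and Mrc1 are also outside the 180. Their calls were lost in 13, 2, 2 and 1 of 23 settings. Called genes between the ages in the knockout ranged from 9283 to 11114 over the other settings and from 8625 to 10026 with 1 library left out, against 9782. The number of genes whose age change differed between genotypes, 110, was 385 by DESeq2 (249 higher and 136 lower, 64.7% higher against 74.5%), 188 by limma-voom (128 and 60), and 25 to 239 with 1 library left out. Repeat names called in the knockout, 805, numbered 525 with the repeats' own TMM factors, 494 with their own totals, and 569 to 835 with 1 library left out. Repeat names that differed between genotypes, 11, numbered 149 by limma-voom, 27 and 22 with the repeats' own factors and totals, and 9 to 14 with 1 library left out. Families called in the knockout, 35, ranged from 21 to 37 with 1 library left out, and families that differed between genotypes, 1, were 2 by limma-voom and 2 with the repeats' own totals. The difference in the share of counts in repeats ranged from -12.31 to -9.011 percentage points with 1 library left out. The causes were not tested.

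Signs reversed for Tex15 (from -0.2751 without knockout d2 replicate 2 to 3.605 without e18.5 replicate 2) and, in the knockout, for Satellite (0.08153 with the repeats' own totals), Alu (0.4245 and 0.5289 with the repeats' own factors and totals) and B2 (0.4097 and 0.5133). For the difference between genotypes, which did not pass the test in these, the values with 1 library left out ranged from -0.3595 to 0.06633 for L1, from -0.01453 to 0.1941 for ERVK, from -0.1386 to 0.1011 for ERVL (0.04766 by limma-voom) and from -0.6132 to 0.1166 for L1Md_Gf.

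Deviations of same-numbered libraries from their group means correlated between -0.178 and 0.104 over all pairs of groups. Between the genotypes at e18.5, same-numbered pairs stood at 0.104, 0.0466 and 0.0795, and the others between -0.137 and 0.0479. At d2, same-numbered pairs stood at 0.0199, -0.178, 0.0569 and -0.123, and the others between -0.164 and 0.221. These few values cannot settle whether the numbers pair libraries within an age. With a replicate block 9544 genes were called in the knockout, 74 differed between genotypes, and 807 repeat names, 36 families and 11 and 1 differences in repeats were called. Knockout d2 replicate 2 had the lowest depth of the 7 knockout libraries. What depth limits was not tested.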

Other observations

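Knockout libraries of e16.5, an age outside the comparison, come in a table with the same row names as that of e18.5. Their levels are given without a test, on a scale common to all 20 libraries, for genes picked after their values were seen. Some genes that fell between e18.5 and d2 were at a lower level before: Dcc was at 13.8 ± 8.38 CPM at e16.5, 143 ± 4.54 CPM at e18.5 and 5.27 ± 3.97 CPM at d2 (SD, n = 3, 3 and 4), and Pappa2 was at means of 26.4, 218 and 15.7 CPM, Chl1 at 37.6, 196 and 15.8 CPM and Nlrp9b at 92.2, 252 and 14.3 CPM. Some genes that rose were at a higher level before, with means at e16.5, e18.5 and d2 of 33.2, 12.1 and 238 CPM for Etv5, 742, 288 and 596 CPM for Sall4, 243, 72.1 and 193 CPM for Asz1 and 31.8, 6.54 and 27.3 CPM for Fgfr2. Others went one way over the 3 ages, such as Piwil4 at 445, 186 and 43.4 CPM and Utf1 at 1146, 317 and 65.8 CPM.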
